A study of Mus musculus with 6 samples.

Results

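Ccr1, Ccr2, Cx3cr1, Cxcr4, Ccrl2 and Ccr9, 6 chemokine receptor genes carried by myeloid cells or by lymphocytes that traffic with them, were described in macrophages sorted from implanted CT26 tumours. CT26 cells come from a chemically induced colon carcinoma of a BALB/c mouse. The genes were taken from the deposited expression table by symbol, and all 6 were found among its 15487 genes. The Sg-C3 group held 3 libraries of macrophages from tumours grown from cells labelled Sg-C3, read here as carrying a guide RNA against complement C3. The Sg-Con group held 3 libraries from tumours of cells labelled Sg-Con, read as carrying a control guide. Tumours of both groups were taken on day 15, both hosts were BALB/C, and all macrophages were labelled wild type, so that the edit lay in the tumour cells and C3 RNA in these libraries does not check it. The labels do not say if libraries of 1 group stem from different mice, or if each tumour line was 1 clone. P-values therefore measure only how far these libraries scatter, and that scatter may be technical. FPKM, the deposited unit, is a count of fragments scaled by gene length and by the mapped fragments of the library.

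Chemokine receptors are membrane proteins that span the membrane 7 times and, through G proteins of the Gi class, steer cells along gradients of chemokines. Ccr2 lets classical monocytes leave the bone marrow and enter inflamed tissue and tumours, and its RNA is usually lost as monocytes become macrophages. Cx3cr1, the fractalkine receptor, marks patrolling monocytes and many tissue macrophages. Cxcr4, the receptor of Cxcl12, retains cells in the bone marrow and in Cxcl12-rich tissue. Ccr1 binds several inflammatory CC chemokines. Ccrl2 is an atypical receptor that binds chemerin without the usual signalling, and it is induced in activated macrophages and neutrophils. Ccr9, the receptor of Ccl25, is best known from thymocytes, gut-homing T cells and plasmacytoid dendritic cells.

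The values of short non-coding genes fell on whole multiples of 1 read, which implied 17.6 to 19.3 megareads mapped per library. A gene was tested if 3 or more of the 6 libraries reached 1 FPKM, with limma on log2(FPKM + 1), and a Benjamini-Hochberg adjusted p below 0.05 over all 11198 tested genes was called. Fold changes on that scale are Sg-C3 minus Sg-Con and understate the change of genes with low FPKM. Among all tested genes 44.4% passed, with 12.7% up and 31.7% down in Sg-C3, and over these genes log2 fold changes had a median of -0.16. Of the 6 receptors 5 passed the filter, and 2 of these 5 were called, both lower. That share is near the share of all genes. The macrophage identity genes Adgre1 and Csf1r stood at 172 ± 29.8 and 324 ± 41 FPKM in Sg-C3, against 173 ± 11.6 and 402 ± 43.8 FPKM in Sg-Con (SD, n = 3 each), and neither passed the test. Of the 8 macrophage markers, 4 were lower in Sg-C3, namely Cd68, Mertk, Itgam and Lyz2.

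Ccr2 and Cxcr4 were the receptors that fell. Ccr2 was at 11.47, 21.23 and 24.54 FPKM in the Sg-C3 libraries, against 48.99, 78.05 and 47.98 FPKM in the Sg-Con libraries. Every Sg-C3 value lay below every Sg-Con value. Groups that did not overlap were common, at 57.6% of tested genes, 16.2% with Sg-C3 higher and 41.4% with Sg-C3 lower. The means were 19.1 ± 6.8 FPKM in Sg-C3 and 58.3 ± 17.1 FPKM in Sg-Con (SD, n = 3 each), a 3.06-fold lower level, with a log2 fold change of -1.59 (SE 0.30, limma adjusted p = 0.00686). Cxcr4 was at 47.55, 39.14 and 59.19 FPKM in Sg-C3, against 104.07, 107.28 and 82.65 FPKM in Sg-Con. These groups did not overlap either. Its means were 48.6 ± 10.1 FPKM in Sg-C3 and 98 ± 13.4 FPKM in Sg-Con, with a log2 fold change of -1.01 (SE 0.17, limma adjusted p = 0.00505). Both genes were called under each of the 14 alternative settings. Relative to the median of all tested genes their log2 fold changes were -1.43 and -0.84. In sorted bulk samples, fewer cells carrying a receptor and less RNA per cell cannot be told apart.

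**Figure D1:**
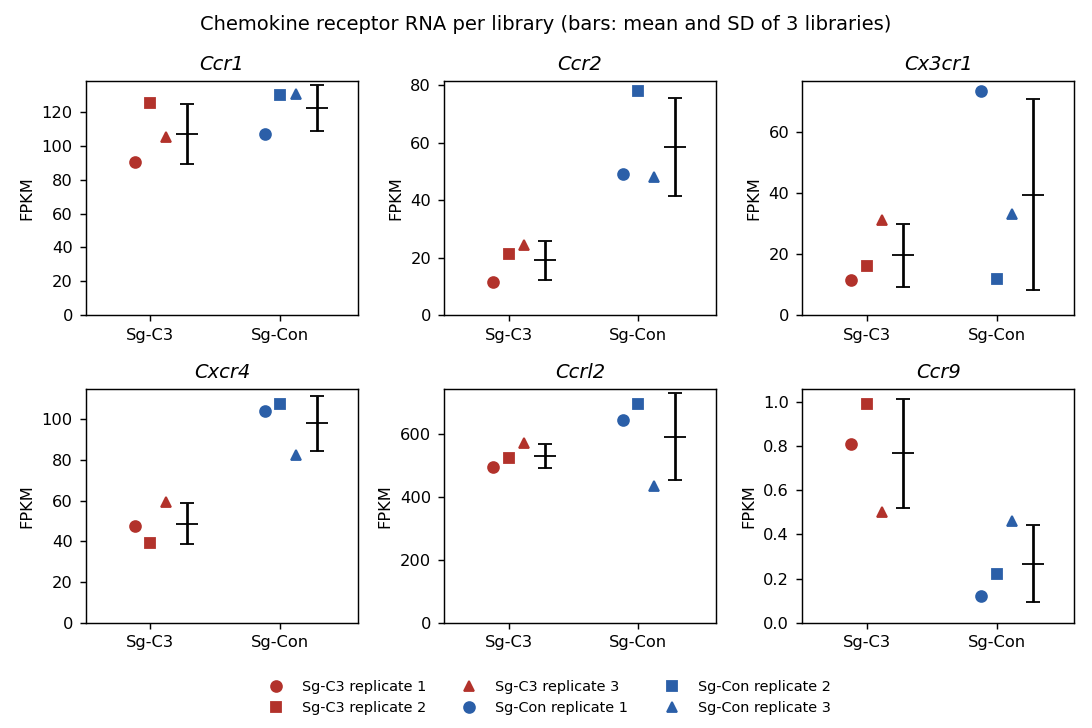
FPKM of the 6 receptor genes in each library, Sg-C3 on the left and Sg-Con on the right of each panel, with the mean and SD of 3 libraries beside the points. The groups are apart for Ccr2, Cxcr4 and Ccr9 and overlap for Ccr1, Cx3cr1 and Ccrl2, and Cx3cr1 spans 11.82 to 73.25 FPKM within Sg-Con.

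Most classical monocyte markers were higher, while Ccr2 was lower. Of 8 classical monocyte markers tested, 5 were higher and 1 lower in Sg-C3, against 12.7% higher and 31.7% lower among all tested genes. Ly6c2, a surface antigen gene of these monocytes, stood at 67.9 ± 29.7 FPKM in Sg-C3 and 15.7 ± 6.84 FPKM in Sg-Con (log2 fold change 2.04, limma adjusted p = 0.00676). Plac8, another gene of circulating monocytes, stood at 232 ± 44 FPKM in Sg-C3 and 30.7 ± 13.2 FPKM in Sg-Con (log2 fold change 2.95, adjusted p = 0.00149). The 1 lower marker was Fn1, the fibronectin gene, at 111 ± 11.9 FPKM in Sg-C3 and 390 ± 235 FPKM in Sg-Con, whose call was lost without Sg-C3 replicate 1 (adjusted p = 0.0546). Summed over the list, the markers ranged from 520 to 725 FPKM in Sg-C3 and from 280 to 812 FPKM in Sg-Con, so the sums overlapped. Most of each Sg-Con sum was Fn1, so this overlap says little about the markers that were higher. None of the 8 markers was at 0 in all libraries. The part of a changed share of monocytes in the Ccr2 result was not tested.

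Cx3cr1 did not pass, and its Sg-Con libraries disagreed among themselves. It was at 11.45, 16.04 and 31.02 FPKM in Sg-C3, against 73.25, 11.82 and 33.04 FPKM in Sg-Con. Sg-Con replicate 2 lay within the Sg-C3 range and Sg-Con replicate 1 far above it, so the groups overlapped. The log2 fold change was -0.75 (SE 0.62, limma adjusted p = 0.352). It was -1.41 without Sg-Con replicate 2 (adjusted p = 0.0588) and -0.14 without Sg-Con replicate 1 (adjusted p = 0.844), the widest swing of the tested receptors. Among 8 nonclassical monocyte markers, genes of the patrolling cells that carry most Cx3cr1 in blood, 5 were higher and 1 lower. Over all tested genes 12.7% were higher and 31.7% lower. Treml4, a receptor gene of that subset, was at 32.87, 34.1 and 32.04 FPKM in Sg-C3, against 10.37, 1.57 and 3.55 FPKM in Sg-Con (log2 fold change 2.74, adjusted p = 0.00545). Cd300e stood at 31.7 ± 10 FPKM in Sg-C3 and 4.43 ± 2.62 FPKM in Sg-Con (log2 fold change 2.70, adjusted p = 0.00419). The lower marker was the transcription factor gene Nr4a1, at 122 ± 57.1 FPKM in Sg-C3 and 290 ± 80.5 FPKM in Sg-Con, which was not called when any of 4 libraries was left out (Sg-C3 replicate 1 or 2, Sg-Con replicate 1 or 2). Without Sg-C3 replicate 1 or 2, or Sg-Con replicate 1, 3 of these markers were higher and 0 lower. In sum the list ranged from 276 to 388 FPKM in Sg-C3 and from 256 to 427 FPKM in Sg-Con. Most of each Sg-Con sum was Nr4a1, the lower marker, so these sums say little about the markers that were higher.

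Ccr1 and Ccrl2 were the receptors with the most RNA per length, and neither passed. Ccrl2 was at 495.78, 525.05 and 571.48 FPKM in Sg-C3, against 644.89, 697.54 and 434.75 FPKM in Sg-Con. Sg-Con replicate 3 was the lowest and Sg-Con replicate 2 the highest of the 6, so the Sg-C3 values lay inside the Sg-Con range. Its log2 fold change was -0.13 (SE 0.18, limma adjusted p = 0.569), and the sign turned after median-ratio scaling (0.06). Ccrl2 lay above at least 98.7% of the genes of the table in every library. Ccr1 was at 90.54, 125.56 and 105.13 FPKM in Sg-C3, against 106.76, 130.1 and 130.42 FPKM in Sg-Con. The 2 ranges overlapped, with a log2 fold change of -0.20 (SE 0.14, adjusted p = 0.283), or -0.03 relative to the median of all tested genes. Immediate early genes, which respond to cell handling and to activation, were summed beside Ccrl2 and reached 5867 FPKM in Sg-C3 replicate 3, against 2701 to 3347 FPKM in the other Sg-C3 libraries and 3880 to 5087 FPKM in Sg-Con. None of the 10 immediate early genes was called by limma, and 0 had an unadjusted p under 0.05. Without Sg-C3 replicate 3, 5 were called lower, and with array weights 2 were.

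Ccr9 was barely detected. It was at 0.81, 0.99 and 0.5 FPKM in Sg-C3, against 0.12, 0.22 and 0.46 FPKM in Sg-Con. The groups did not overlap, but Sg-C3 replicate 3 and Sg-Con replicate 3 were only just apart, and with no filter 49.1% of genes had groups that did not overlap, 15.9% with Sg-C3 higher and 33.3% with Sg-C3 lower. With the estimated depth and the lengths of its annotated protein-coding transcripts, these values stand for about 25 to 97 reads per Sg-C3 library and 6 to 46 reads per Sg-Con library. Ccr9 did not reach the filter. In a fit of all 15487 genes with no filter, where 32.1% of genes were called, 10% higher and 22.1% lower, its log2 fold change was 0.48 (SE 0.14, limma adjusted p = 0.0404). That call was lost without Sg-C3 replicate 1 (adjusted p = 0.12), Sg-C3 replicate 2 (0.132), Sg-Con replicate 1 (0.12) or Sg-Con replicate 2 (0.113). Markers of cells known to carry Ccr9 were measured beside it. The T cell markers summed to 17.1 to 24.5 FPKM in Sg-C3 and 2.79 to 6.44 FPKM in Sg-Con, and with no filter 6 of 9 were higher and none lower. Most of each Sg-C3 sum was Cd4, at 8.65, 15.53 and 14.29 FPKM in Sg-C3, against 2.58, 0.33 and 1.76 FPKM in Sg-Con. Cd3g, a chain of the T cell receptor complex, was at 1.65, 2 and 1.07 FPKM in Sg-C3, against 0.05, 0 and 0.05 FPKM in Sg-Con. Cd3e, another chain, overlapped between the groups, at 0.84, 0.78 and 1.58 FPKM in Sg-C3, against 2.2, 0.84 and 0.52 FPKM in Sg-Con. Siglech, a defining gene of plasmacytoid dendritic cells, was at 0.18, 0.26 and 0.19 FPKM in Sg-C3, against 0.11, 0.07 and 0.15 FPKM in Sg-Con, and the sums of that list overlapped (54.8 to 73.9 FPKM in Sg-C3 and 48 to 65.1 FPKM in Sg-Con). Lair1, Runx2 and Tcf4 made up most of each plasmacytoid sum. Runx2 was called higher (limma adjusted p = 0.00112) and Tcf4 lower (0.0103), while Lair1 did not pass. The overlap of these sums therefore says little about scarce genes such as Siglech. Of the 8 plasmacytoid genes measured, 3 had groups apart with Sg-C3 higher and 1 with it lower, against 15.9% and 33.3% of all genes. The part of T cells and plasmacytoid dendritic cells in the Ccr9 values was not tested.

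Levels per length followed 1 order in both groups at the top and bottom. Ccrl2 was highest, Ccr1 second, Cxcr4 next and Ccr9 lowest in every library, while Ccr2 and Cx3cr1 changed places between libraries. In Sg-Con the ranges of Ccr1 (106.76 to 130.42 FPKM) and Cxcr4 (82.65 to 107.28 FPKM) touched, whereas in Sg-C3 they were apart. Ccr2 and Cx3cr1 did not differ beyond their spread in either group. Of the summed FPKM of the 20 chemokine receptor genes in the table, Ccrl2 held 58.7 ± 2.61% in Sg-C3 and 56.7 ± 4.63% in Sg-Con (SD, n = 3 each). The share of Ccr2 was 2.07 ± 0.589% in Sg-C3 and 5.62 ± 1.18% in Sg-Con, and that of Cxcr4 was 5.38 ± 1.07% in Sg-C3 and 9.49 ± 0.267% in Sg-Con. Ratios between receptors within a library do not depend on how libraries were scaled. The ratio of Ccr1 to Ccr2 was 7.89, 5.91 and 4.28 in Sg-C3, against 2.18, 1.67 and 2.72 in Sg-Con. For Cxcr4 to Ccrl2 it was 0.0959, 0.0746 and 0.104 in Sg-C3, against 0.161, 0.154 and 0.19 in Sg-Con. Of the 15 pairs among the 6 receptors, 7 had ratios that did not overlap between the groups. All 7 involved Ccr2, Cxcr4 or Ccr9, the receptors whose own groups were apart, so this count is no separate result. The share over pairs of other genes was not computed.

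The 2 genes that fell lie on different chromosomes and differ in base composition upstream. Cxcr4 is on chromosome 1 and the other 5 receptors are on chromosome 9. The 250 bases before the annotated start were read from RefSeq (GRCm38.p6) and searched on both strands for 5 motifs: the interferon gamma element GAS as TTCNNNGAA, the interferon element ISRE as GAAA, any 2 bases and GAAA again, the hypoxia element HRE as ACGTG, an NF-kB site as GGANTTTCC and a PU.1 core as GAGGAA. Shown are the window of Cxcr4, which fell, and those of Ccrl2 and Ccr1, the most abundant receptors, neither of which passed the test. Capitals mark a motif match.
Cxcr4, chr1:128592300-128592549, minus strand: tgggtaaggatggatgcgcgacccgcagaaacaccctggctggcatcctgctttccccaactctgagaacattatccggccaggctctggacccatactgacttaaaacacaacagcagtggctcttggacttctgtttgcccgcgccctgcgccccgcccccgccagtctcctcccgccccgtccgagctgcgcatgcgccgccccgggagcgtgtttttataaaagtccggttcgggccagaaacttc
Ccrl2, chr9:111057519-111057768, minus strand: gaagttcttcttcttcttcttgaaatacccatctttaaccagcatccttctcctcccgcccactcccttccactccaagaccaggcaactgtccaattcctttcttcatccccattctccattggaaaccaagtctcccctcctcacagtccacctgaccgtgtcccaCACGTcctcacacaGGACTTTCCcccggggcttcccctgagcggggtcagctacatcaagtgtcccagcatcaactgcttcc
Ccr1, chr9:123968693-123968942, minus strand: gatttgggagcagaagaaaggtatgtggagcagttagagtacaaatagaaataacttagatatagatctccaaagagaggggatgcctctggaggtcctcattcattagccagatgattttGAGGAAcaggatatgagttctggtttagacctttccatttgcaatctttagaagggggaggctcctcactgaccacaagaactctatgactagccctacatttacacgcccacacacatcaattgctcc
The printed Ccrl2 window, 1 of 3 for its annotated starts, held an NF-kB match 68 to 60 bases before the start and an HRE match 82 to 78 bases before it, and the Ccr1 window a PU.1 match 129 to 124 bases before it. The windows of Cxcr4, Ccr2, Cx3cr1 and Ccr9 held none of the 5. Of 32851 promoter windows of this length, 1.07% held the NF-kB motif, 16.6% HRE, 23.3% PU.1, 7.02% GAS and 2.98% ISRE. The Cxcr4 window was 61.2% G and C and that of Ccr2 37.2%. These matches describe letters in the reference genome and no binding was measured.

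The ligands of these receptors split by chemokine. Of 12 ligand genes 10 were tested, and 3 were higher and 5 lower in Sg-C3, with a median log2 fold change of -0.70. Among all tested genes 12.7% were higher and 31.7% lower, with a median of -0.16. All 3 measured ligands of Ccr2 fell beside their receptor. Ccl2, the main attractant of Ccr2-bearing monocytes, was at 264.98, 336.13 and 327.33 FPKM in Sg-C3, against 967.62, 940.99 and 981.72 FPKM in Sg-Con (log2 fold change -1.64, limma adjusted p = 7.80e-04). Ccl7, which binds Ccr1 and Ccr2, and Ccl12, a second Ccr2 ligand of the mouse, had log2 fold changes of -2.02 and -1.37 (adjusted p = 0.00149 and 0.00704). The groups of each were apart.

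Ligands of Ccr1 went both ways. Ccl6 and Ccl9, CC chemokines made by mouse macrophages, fell to 225 ± 46.2 and 150 ± 25.1 FPKM in Sg-C3, against 1065 ± 351 and 540 ± 157 FPKM in Sg-Con (adjusted p = 0.00185 and 0.00203). Ccl3 rose to 1379 ± 24.7 FPKM in Sg-C3, against 876 ± 156 FPKM in Sg-Con, and Ccl5, which also attracts T cells, to 728 ± 231 FPKM in Sg-C3, against 118 ± 8.46 FPKM in Sg-Con (for Ccl3 a log2 fold change of 0.67 with adjusted p = 0.00874, for Ccl5 2.57 with 0.00104). Ccl3 had the highest mean FPKM of the 12 ligands in Sg-C3, and in Sg-Con Ccl6 did.

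The ligands of the other receptors were scarce in these samples, apart from Mif. Cxcl12, the ligand of Cxcr4, stood at 0.387 ± 0.106 FPKM in Sg-C3 and 0.197 ± 0.111 FPKM in Sg-Con and was not tested. Mif, a cytokine that can also bind Cxcr4, stood at 261 ± 16.4 FPKM in Sg-C3 and 264 ± 4.07 FPKM in Sg-Con (adjusted p = 0.838). Cx3cl1, fractalkine, stood at 2.43 ± 0.229 FPKM in Sg-C3 and 1.84 ± 0.151 FPKM in Sg-Con and did not pass (adjusted p = 0.0796), but passed after quantile normalization (0.0367) and median-ratio scaling (0.0306). Ccl25, the ligand of Ccr9, was not tested, at 0.66 ± 0.246 FPKM in Sg-C3 and 1.05 ± 0.618 FPKM in Sg-Con. Rarres2, which encodes chemerin, was at 1.97, 2.08 and 2.12 FPKM in Sg-C3, against 1.11, 1.4 and 1.28 FPKM in Sg-Con (log2 fold change 0.44, adjusted p = 0.0161), and was not called without Sg-C3 replicate 2 (0.0536) or Sg-Con replicate 1 (0.0544). Fibroblasts are a source of Cxcl12 and chemerin, and the summed fibroblast markers were at 141 to 204 FPKM in Sg-C3 and 61 to 81.1 FPKM in Sg-Con. Of 7 tested, 4 were higher and 1 lower, against 12.7% higher and 31.7% lower among all tested genes. Most of the gap in the sums came from Dcn, the decorin gene, at 120.89, 134.7 and 85.28 FPKM in Sg-C3, against 19.06, 28.75 and 17.9 FPKM in Sg-Con. The lower gene was the collagen gene Col1a2 (log2 fold change -0.59, adjusted p = 0.0155), which was not called after quantile normalization or median-ratio scaling, or without Sg-C3 replicate 1 or Sg-Con replicate 2. The part of fibroblasts in the ligand values was not tested. Cmklr1, the signalling receptor of chemerin, was called lower (log2 fold change -0.78, adjusted p = 0.035), but not after quantile normalization or median-ratio scaling, nor when any library other than Sg-C3 replicate 3 was left out (adjusted p = 0.056 to 0.0961 over these).

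**Figure D2:**
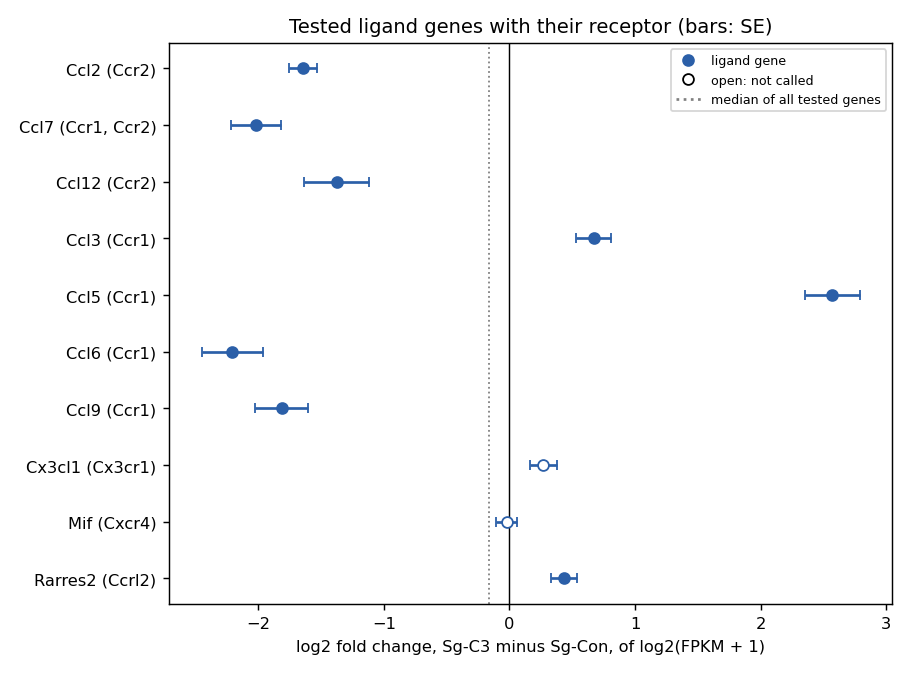
Log2 fold change (Sg-C3 minus Sg-Con, with SE) of the 10 tested ligand genes, with the receptor of each in brackets and open points for genes that were not called. The 3 ligands of Ccr2 sit between -2.02 and -1.37, while those of Ccr1 range from -2.21 for Ccl6 to 2.57 for Ccl5.

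Among the other chemokine receptors the called genes were higher, not lower. Of 14 such genes 12 were in the table and 6 were tested. Of these 6, 3 were higher and none lower, against 12.7% and 31.7% of all tested genes. Ccr7, which guides dendritic cells to lymph nodes, was at 30.92, 46.05 and 21.46 FPKM in Sg-C3, against 2.74, 1.33 and 3.23 FPKM in Sg-Con (log2 fold change 3.28, limma adjusted p = 0.0013). Xcr1, a receptor of cross-presenting dendritic cells, was at 5.37, 7.85 and 3.81 FPKM in Sg-C3, against 1.17, 1.78 and 3.06 FPKM in Sg-Con (log2 fold change 1.16, adjusted p = 0.0167). Cxcr6, carried by effector T and NK cells, stood at 2.01 ± 0.653 FPKM in Sg-C3 and 0.587 ± 0.17 FPKM in Sg-Con (adjusted p = 0.00757), and it passed the filter only through its Sg-C3 values. With either Sg-C3 replicate 1 or 2 left out, Ccr7 alone was called. Ackr3, an atypical receptor that scavenges Cxcl12, did not pass (log2 fold change -0.15, adjusted p = 0.636). Beside the higher receptors, NK cell markers summed to 31.8 to 39.2 FPKM in Sg-C3 and 1.58 to 4.27 FPKM in Sg-Con. The 10 conventional dendritic cell markers summed to 18.8 to 20.1 FPKM in Sg-C3 and 16.1 to 23.8 FPKM in Sg-Con, so these sums overlapped. Fscn1 and Clec10a made up most of each sum. Of the 10, 6 had groups apart with Sg-C3 higher and 0 with Sg-C3 lower, against 15.9% and 33.3% of all genes. However, 5 of the 10 stayed under 1 FPKM in all libraries. Of these markers 3 were tested, and Kit was higher while Fscn1 and Clec10a did not pass. Kit, like Cxcr6, passed the filter only through its Sg-C3 values and was not tested with any Sg-C3 library left out. With no filter, 3 of the 10 were called higher and none lower, against 10% and 22.1% of all genes. The part of these cells was not tested.

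**Figure D3:**
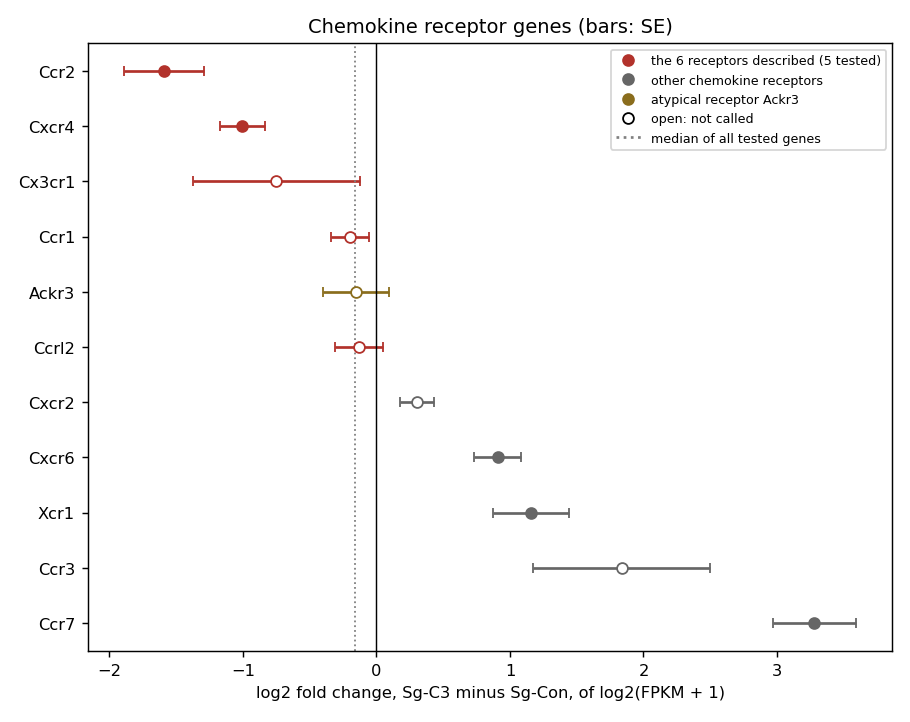
Log2 fold change (Sg-C3 minus Sg-Con, with SE) of 11 chemokine receptor genes, ordered by value, with open points for genes that were not called and a dotted line at the median of all tested genes. Ccr2 and Cxcr4 lie lowest and Ccr7 highest, at 3.28.

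Neighbouring genes on chromosome 9 did not move as a block. In RefSeq order, 9 protein-coding genes run from Lztfl1 to Ccr2, and 7 of them encode chemokine receptors. Ccr2 lies next to Ccr3. Ccr3, the eotaxin receptor of eosinophils, was at 19.11, 18.22 and 3.76 FPKM in Sg-C3, against 2.15, 0.84 and 5.98 FPKM in Sg-Con, and did not pass (log2 fold change 1.84, limma adjusted p = 0.0566), though it passed without Sg-C3 replicate 3 (0.0108), without Sg-Con replicate 3 (0.0312) or with array weights (0.0272). On the other side of Ccr1, Xcr1 and Cxcr6 were higher while Ccr1 itself overlapped between the groups. Of the 36-base stretches in its annotated transcripts, Ccr1 shared 0.429% with Ccr3, and the sources used here do not say how such reads were assigned. Cx3cr1 overlaps the non-coding gene Gm33858 and Ccr9 overlaps Gm17021, and without strand information their reads cannot be told apart.

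**Figure D4:**
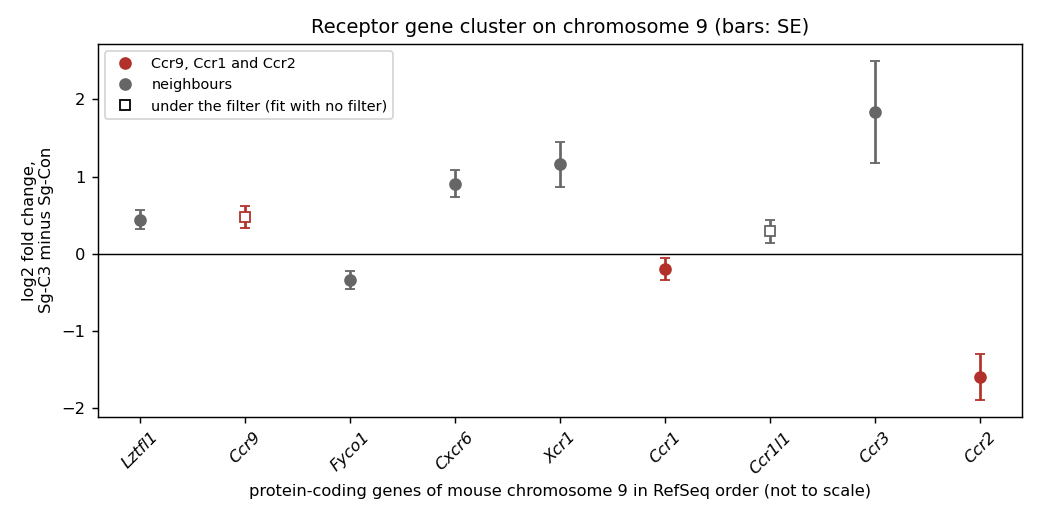
Log2 fold change (Sg-C3 minus Sg-Con, with SE) of the 9 genes from Lztfl1 to Ccr2 on chromosome 9 in RefSeq order, with open squares for the 2 genes under the filter. Ccr2, at -1.59, lies next to Ccr3, at 1.84.

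Genes that carry the receptor signal were called in both directions. Of 21 tested, 4 were higher and 7 lower, with a median log2 fold change of -0.24. Among all tested genes 12.7% were higher and 31.7% lower, with a median of -0.16. The lower share of the 21 was near that of all genes, and the higher share rested on 4 genes. Gnai2, the main Gi alpha subunit of leukocytes, stood at 297 ± 26 FPKM in Sg-C3 and 457 ± 17.1 FPKM in Sg-Con (log2 fold change -0.62, limma adjusted p = 0.00357). Plcb3, a phospholipase C activated by G protein subunits, had a log2 fold change of -0.84 (adjusted p = 0.00749). Of the kinases that desensitise these receptors, Grk3 (listed as Adrbk2) rose 3.04-fold to 30 ± 1.92 FPKM in Sg-C3, against 9.88 ± 3.17 FPKM in Sg-Con (adjusted p = 0.0025). Rac2, a small GTPase of leukocyte migration, rose to 115 ± 7.23 FPKM in Sg-C3, against 77.4 ± 13.9 FPKM in Sg-Con (adjusted p = 0.015, but 0.0517 without Sg-C3 replicate 1). The lower count depended on scaling and on single libraries. It was 2 after median-ratio scaling and without Sg-C3 replicate 1, Sg-C3 replicate 2 or Sg-Con replicate 2, 3 without Sg-Con replicate 1 and with title style as a covariate, and 4 without Sg-Con replicate 3, while the higher count was 2 without Sg-C3 replicate 1. RGS proteins, which switch the G proteins off, had 3 of 8 lower and none higher, a lower share near the 31.7% of all tested genes. The lower genes were Rgs19 (log2 fold change -0.72, adjusted p = 0.00667), Rgs10 (-0.56, 0.0107) and Rgs16 (-0.77, 0.0158), and 5 were lower without Sg-C3 replicate 1.

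Macrophage markers were measured beside all of these. Of 8 such genes 4 were lower and none higher, against 31.7% lower and 12.7% higher among all tested genes. The other 4, with Adgre1 and Csf1r among them, did not pass. The 8 genes summed to 5791 to 7200 FPKM in Sg-C3 and 10895 to 13096 FPKM in Sg-Con, a gap that came mostly from Lyz2. Lyz2, the lysozyme gene, stood at 3378 ± 579 FPKM in Sg-C3 and 7712 ± 915 FPKM in Sg-Con (limma adjusted p = 0.00257), and Cd68 at 403 ± 38.5 FPKM in Sg-C3 and 725 ± 32.3 FPKM in Sg-Con (adjusted p = 0.00194). Neutrophil markers, from cells that carry Ccr1, Cxcr4 and Ccrl2, summed to 381 to 1313 FPKM in Sg-C3, highest in Sg-C3 replicate 1, and to 134 to 215 FPKM in Sg-Con. Most of each sum came from S100a8 and S100a9. Of the 10 neutrophil markers 5 did not reach the filter. Of the 5 tested 4 were higher and none lower, against 12.7% higher and 31.7% lower among all tested genes. With a library left out, 2 to 4 were higher. B cell markers, from cells that carry Cxcr4, summed to 4.72 to 6.91 FPKM in Sg-C3 and 1.76 to 4.62 FPKM in Sg-Con. The carcinoma markers summed to 2.27 to 3.03 FPKM in Sg-C3 and 15.3 to 29.7 FPKM in Sg-Con. Most of that gap was the keratin gene Krt8, at 0.35, 0.26 and 0.36 FPKM in Sg-C3, against 8.92, 21.86 and 12.15 FPKM in Sg-Con. Krt8 passed the filter only through its Sg-Con values. Cdh1 was lower too, while Epcam, Krt18, Krt19 and Cldn4 overlapped between the groups and were not tested. The part of these cells in the receptor values was not tested.

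The genes whose pattern over the 6 libraries was most like each receptor were found by Pearson r of log2(FPKM + 1). The search covered 10690 of the 11198 tested genes, as predicted genes (Gm, Rik and LOC names) were left out. For Cxcr4 they were Fkbp5 (r = 0.999), Fkbp15 and Ttc5. Fkbp5, a co-chaperone of steroid receptors, was at 8.7, 5.18 and 13.89 FPKM in Sg-C3, against 58.03, 64.56 and 33.52 FPKM in Sg-Con. Like Cxcr4 it was lowest in Sg-C3 replicate 2 and highest in Sg-Con replicate 2. For Ccr2 they were Rnf13 (r = 0.998), Plekhm3 and Umad1, for Cx3cr1 Srpk1 (0.991), Galnt12 and Atxn2l, and for Ccr1 Extl2 (0.995), Ttpal and Grem1. For Ccrl2 they were L3mbtl3 (0.995), Mir8112 and Rbm4, and for Ccr9 Klhl11 (0.999), Slc7a11 and Prkce. With so few libraries, 2 groups and so many genes, such values are a description. Ccr2 and Cxcr4 themselves had r = 0.89 over the 6 libraries and 0.35 around their group means.

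**Figure D5:**
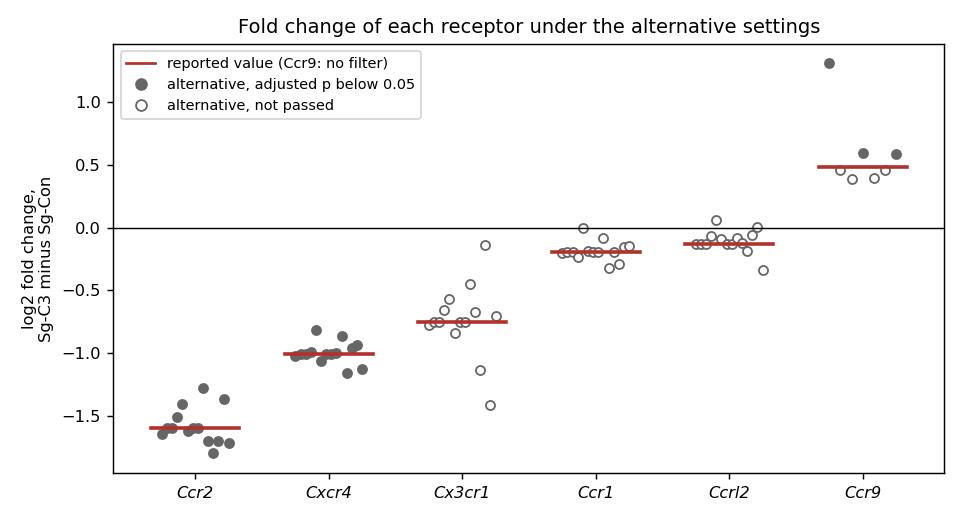
Log2 fold change (Sg-C3 minus Sg-Con) of each receptor as reported (red lines) and under the alternative settings (points, filled where the adjusted p was below 0.05). Ccr2 and Cxcr4 stay below 0 and filled throughout, Cx3cr1 ranges from -1.41 to -0.14, Ccrl2 lies on both sides of 0, and Ccr9 is filled under 3 of 7.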

How the data were processed

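RNA sequencing values of 6 libraries were taken from the authors' deposited table, whose column names give the unit as FPKM with 2 decimals. The submitters' processing notes name Bowtie 0.12.2 and mm8, and no source used here names the tool behind the FPKM values. Per the labels' protocols, cells were sorted by flow cytometry and RNA was extracted with Trizol, and both a TruSeq and an MGIEasy kit are named. Of the symbols, 23 that had become dates were restored by looking up their identifiers in the GRCm38.p6 table of RefSeq, which held 15440 of the identifiers. Its coordinates belong to another build than the deposited values, so they are given for the printed promoters alone. The table has no read counts, and depth was estimated from 428 short non-coding genes, where 89.1% to 93.9% of low values were whole reads within 0.1 read once 36 bases were taken from each length. Replicates were numbered in accession order within a group, and the labels give no pairing between groups.

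Tests used limma 3.58.1 in R 4.3.3 (lmFit, eBayes with a mean-variance trend) on log2(FPKM + 1), with no covariate, over all genes past the filter. The code was tested on simulated data. SD is over the 3 libraries of a group, SE is limma's moderated standard error, and fold is a ratio of mean FPKM. Tables and plots used Python 3.11.15, pandas 2.3.3, numpy 2.4.6 and matplotlib 3.10.9. Alternatives were a pseudocount of 0.1 FPKM, no filter, a mean of at least 5 FPKM, median-ratio scaling, quantile normalization, a robust prior for the variance, array weights, title style as a covariate, and leaving out each library. Title style sets replicate 3 of each group, whose sample title follows another pattern, apart from replicates 1 and 2. The labels do not say if this marks a batch. Fits of Ccr9 with no filter and a library left out or a pseudocount of 0.1 FPKM were added after seeing the data. The 6 receptors and the gene lists were chosen with earlier results of these data known. Named genes are the 6 receptors, any gene of the receptor and ligand lists, from other lists the 4 tested genes with the smallest p, 3 macrophage markers, the 3 genes most like each receptor and genes next to a receptor. Fn1, Siglech, Cd3e, Epcam, Krt18, Krt19 and Cldn4 fall outside that rule and were named after their values were seen. Some genes of these lists or next to a receptor are not reported here.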

Additional observations from a re-analysis of the deposited data

How the results depend on the processing

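The calls of Ccr2 and Cxcr4 held under all 14 alternatives, with log2 fold changes from -1.80 to -1.28 (adjusted p at most 0.0243) and from -1.16 to -0.82 (at most 0.022), and the number of receptors called lower was 2 in each. Cx3cr1 (-1.41 to -0.14) and Ccr1 (-0.32 to -0.01) kept their sign and were never called. Ccrl2 was never called (-0.34 to 0.06), and its sign turned after median-ratio scaling (0.0614) and without Sg-Con replicate 2 (0.0009). Median-ratio scaling moved the median of all tested genes from -0.16 to 0.0048 and the share of lower calls from 71.5% to 47.3%, and quantile normalization moved that share to 56.9%. Ccr9 was not tested in fits that kept the filter. With no filter and 1 library left out its log2 fold change ranged from 0.39 to 0.59, and it was not called without Sg-C3 replicate 1 (0.4567) or 2 (0.3884) or Sg-Con replicate 1 (0.3948) or 2 (0.4565). With no filter and a pseudocount of 0.1 FPKM it was 1.31 (adjusted p = 0.0453). The other chemokine receptors called numbered 3, but 1 where a mean of at least 5 FPKM was required, which left 4 of them tested, 4 under quantile normalization, median-ratio scaling or array weights, and 1 to 4 with a library left out. The ligands called numbered 7 to 9 under every alternative. No paired analysis was possible because the labels give the groups no shared replicate numbers. The depth of low genes such as Ccr9 limits their precision.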

Other observations

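Genes next to the receptors outside the chromosome 9 cluster gave these values. Beside Cxcr4, Mcm6, a subunit of the replicative helicase, stood at 13.21, 11.46 and 14.61 FPKM in Sg-C3, against 33.61, 20.79 and 30.19 FPKM in Sg-Con (log2 fold change -1.03, limma adjusted p = 0.00594). Dars, the aspartyl-tRNA synthetase gene next to it, was lower as well, at 12.85, 13.9 and 16.79 FPKM in Sg-C3, against 24.64, 21.47 and 21.23 FPKM in Sg-Con (log2 fold change -0.60, adjusted p = 0.0088). Both groups were apart for each gene. Near Cx3cr1, Csrnp1, a gene for a nuclear protein, was at 367.37, 367 and 398.34 FPKM in Sg-C3, against 253.7, 228.79 and 248.3 FPKM in Sg-Con (log2 fold change 0.63, adjusted p = 0.00276), while Cx3cr1 overlapped between the groups. Beside Ccrl2, Ltf, the lactoferrin gene of neutrophils, reached at most 1.87 FPKM, in Sg-C3 replicate 1.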
